A study of Homo sapiens with 24 samples.

Results

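The EGF family comprises secreted or membrane-shed ligands and the receptor tyrosine kinases of the ERBB group that bind them. In the human liposarcoma line SW872, 10 of its genes were followed across 24 RNA-seq libraries. They were 6 ligand genes (AREG, EREG, HBEGF, TGFA, BTC and NRG1) and 4 receptor genes (EGFR, ERBB2, ERBB3 and ERBB4), found by Ensembl identifier among the 60279 genes of each count table. Of these genes, 5 ligands and 3 receptors reached a mean of 5 counts per library and were tested, whereas BTC and ERBB4 did not and are given as counts.

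Each library came from SW872 cells stably carrying the retroviral vector pBabeNeo, either empty (EV) or encoding 1 Flag-tagged protein, under G418 selection, and the study made each cell line in triplicate. TAZ-CAMTA1 and YAP-TFE3 are fusion proteins found in epithelioid hemangioendothelioma, in which the N-terminal, TEAD-binding part of TAZ or YAP is joined to the C-terminal part of the transcription factor CAMTA1 or TFE3. TAZ4SA and YAP5SA are full-length forms with serines replaced so that the Hippo kinases cannot restrain them. TFE3 and CAMTA1 were also expressed as full-length proteins. Collection was at 48 h past confluence for 6 groups, whereas CAMTA1 cells and a further set of empty vector cells (EVsub) were taken sub-confluent. All 8 groups carried the vector and its selection marker and held 3 libraries each.

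The receptors work in pairs. EGFR binds AREG, EREG, HBEGF, TGFA and BTC, ERBB3 and ERBB4 bind NRG1, and ERBB2 has no known soluble ligand and acts as the preferred partner of the others. Binding leads through the adaptors SHC1 and GRB2 to the RAS-ERK cascade and through the regulatory subunit PIK3R1 to PI3-kinase, and AREG is a widely used target gene of YAP.

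EREG and HBEGF are shown first by sequence. EREG was higher and HBEGF lower in each fusion than in the matching TAZ4SA or YAP5SA libraries. NRG1 was also higher in both comparisons, but it is not among the genes whose start windows were searched. The 250 bases before each RefSeq start site, on GRCh38.p14, read as follows in the direction of transcription, with capitals marking a match to a TEAD motif (GGAATG or its reverse complement CATTCC, searched on both strands).
EREG, chr4:74364895-74365144, plus strand: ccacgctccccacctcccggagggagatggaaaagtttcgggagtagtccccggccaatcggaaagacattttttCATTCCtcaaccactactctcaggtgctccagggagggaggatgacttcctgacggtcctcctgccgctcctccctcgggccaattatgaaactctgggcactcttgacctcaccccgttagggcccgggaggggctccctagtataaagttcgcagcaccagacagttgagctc
HBEGF, chr5:140346604-140346853, minus strand: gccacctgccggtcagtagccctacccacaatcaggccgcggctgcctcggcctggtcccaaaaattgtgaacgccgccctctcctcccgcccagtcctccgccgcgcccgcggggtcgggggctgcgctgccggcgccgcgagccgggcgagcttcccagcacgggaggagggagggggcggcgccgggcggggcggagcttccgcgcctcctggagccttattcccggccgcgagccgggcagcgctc
The EREG window held 1 TEAD match, whose first base lay 175 bases before the start site, and the HBEGF window held no match to it, to the E-box CACGTG bound by TFE3 or to the AP-1 motif TGANTCA. RefSeq start windows of 300 bases (250 before and 50 after the start) were searched for 8 of the 10 genes, 10 windows in all. NRG1 and ERBB3 were left out of the search, so these counts do not show whether a window exists for them. The other matches were an AP-1 motif before ERBB2 and a TEAD and 2 AP-1 matches in the second of the EGFR windows, 5 matches in total. Over 35116 such windows of the genome, 14.0% held the TEAD letters, 7.26% the E-box and 7.71% the AP-1 letters. A match describes these letters only and is not evidence of binding.

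Library totals ran from 19700277 to 35287476 counts, and mitochondrial genes took 3.20% to 6.36% of them. WWTR1, the gene of TAZ, went against a label: it stood at 134 ± 0.538 CPM in libraries labelled TAZ4SA and 204 ± 20.3 CPM in EV (SD, n = 3). TAZ4SA below means the libraries so labelled, and each direction given for them rests on that label. The paper reports TAZ4SA protein in SW872 cells from a blot of its Flag tag. WWTR1 was also below the EV range in YAP-TFE3 (126 ± 3.17 CPM) and YAP5SA (68.7 ± 1.66 CPM), so a low WWTR1 count was not particular to the TAZ4SA label. In TAZ-CAMTA1, which carries only a part of TAZ, it was below that range too, at 181 ± 2.15 CPM. The CAMTA1 gene was higher there (144 ± 7.14 CPM against 21.4 ± 2.04 CPM in EV). CPM is the count relative to the library total, brought to a common depth with TMM scaling factors. YAP1 was higher in YAP5SA (253 ± 4.98 CPM) than in EV (128 ± 12.4 CPM), CAMTA1 in CAMTA1 cells, and TFE3 in YAP-TFE3 (283 ± 49.6 CPM) and TFE3 cells (336 ± 19.2 CPM). TFE3 was also above the EV range of 109 to 129 CPM in YAP5SA (186 ± 14.0 CPM), the libraries labelled TAZ4SA (174 ± 14.3 CPM) and TAZ-CAMTA1 (147 ± 10.5 CPM). A raised TFE3 count was thus not particular to the constructs that encode it. Of the 6 mesenchymal markers VIM was the most abundant (464 to 1153 CPM), the adipocyte product ADIPOQ and the melanocyte genes TYR and SOX10 were at 0, and the leukocyte gene PTPRC never exceeded 1 count. The other melanocyte marker, MLANA (0.190 to 1.30 CPM), and the other leukocyte markers, CD14 (0.656 to 1.38 CPM) and CD3E (0.0331 to 1.39 CPM), were low but counted in every library. SW872 is classed as a liposarcoma line, and of the 6 adipocyte markers LPL and PPARG were present at 27.2 CPM or more in every library. PLIN1 (0.361 to 1.24 CPM), CEBPA (0.436 to 3.78 CPM) and FABP4 (0 to 0.747 CPM) were low, so the adipocyte sums below are mostly LPL and PPARG. The endothelial markers TIE1 (49.9 to 326 CPM) and CDH5 (3.09 to 64.1 CPM) were also present, and PECAM1 was lower (1.70 to 9.32 CPM). Both lists differed between groups. The 3 endothelial markers summed to 131 to 162 CPM in EV, 278 to 364 CPM in the libraries labelled TAZ4SA and 76.0 to 164 CPM in all other groups. The 6 adipocyte markers summed to 149 to 223 CPM in EV, 64.2 to 74.4 CPM in the libraries labelled TAZ4SA, 118 to 132 CPM in YAP5SA, 304 to 370 CPM in YAP-TFE3 and 108 to 237 CPM in all other groups. The part of these shifts in the changes described below was not tested. RNA was measured in bulk, so fewer cells with a transcript and less transcript per cell cannot be told apart.

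HBEGF, a heparin-binding ligand shed from the cell surface, was the most abundant ligand per kilobase of transcript and rose most in YAP5SA and in the libraries labelled TAZ4SA. Per library it stood at 10.9, 13.2 and 9.93 CPM in EV, 46.8, 43.0 and 33.0 CPM in libraries labelled TAZ4SA and 61.9, 60.3 and 45.3 CPM in YAP5SA. All 6 libraries of the latter 2 groups lay above all other 18, which spanned 8.68 to 17.3 CPM. The increase over EV was 3.60-fold for TAZ4SA (1.85 on the log2 scale with an SE of 0.14, edgeR adjusted p = 9.63e-11) and 4.91-fold for YAP5SA (2.29 on the log2 scale with an SE of 0.14, edgeR adjusted p = 2.31e-12). YAP-TFE3 cells reached 14.9, 15.7 and 16.7 CPM. This was a smaller rise, without overlap with EV (0.47 on the log2 scale with an SE of 0.14, edgeR adjusted p = 0.00602). In TAZ-CAMTA1 cells, at 13.0, 14.2 and 11.6 CPM, the range overlapped that of EV and the difference missed the threshold (0.18 on the log2 scale with an SE of 0.14, edgeR adjusted p = 0.531).

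EREG, encoding epiregulin, rose in YAP-TFE3 and fell in the libraries labelled TAZ4SA. It was counted at 0.725, 0.876 and 1.07 CPM in EV and at 3.35, 4.05 and 3.35 CPM in YAP-TFE3, a 4.07-fold increase (2.03 on the log2 scale with an SE of 0.33, edgeR adjusted p = 1.58e-05). The libraries labelled TAZ4SA held only 3, 6 and 13 counts of EREG, or 0.120, 0.258 and 0.501 CPM, below every EV library (-1.55 on the log2 scale with an SE of 0.47, edgeR adjusted p = 0.00866). These few counts made the value sensitive to single libraries: without TAZ4SA replicate 1 the call was lost (log2 fold change -1.18), and without TAZ4SA replicate 3 the change was -2.20. YAP5SA libraries, at 0.614, 0.238 and 0.442 CPM, also lay below the EV range, but the difference missed the threshold (-1.01 on the log2 scale with an SE of 0.45, edgeR adjusted p = 0.0695). It passed under 5 alternatives (total-count scaling, no filter on low counts, a fit on the 2 groups alone, thinned counts and DESeq2), at log2 fold changes between -1.005 and -1.20. TAZ-CAMTA1 cells, at 0.720, 1.06 and 1.14 CPM, overlapped EV.

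EREG also had the largest change with cell density of the 8 tested members. In sub-confluent empty vector cells it reached 3.39, 2.52 and 3.52 CPM, 3.60-fold over confluent EV (1.85 on the log2 scale with an SE of 0.33, edgeR adjusted p = 0.000172). The sub-confluent CAMTA1 cells spread from 2.06 to 4.90 CPM, and the ordered group means fell into 2 sets: CAMTA1, YAP-TFE3 and EVsub between 3.14 and 3.58 CPM, overlapping each other, and the other 5 groups at 0.973 CPM or less. No library of the lower set reached the upper one.

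AREG, encoding amphiregulin, was near the limit of detection, with a mean of 7.29 counts per library and between 1 and 26 counts in each. EV libraries held 2, 1 and 4 counts, those labelled TAZ4SA 11, 11 and 15, YAP5SA 11, 8 and 10, and YAP-TFE3 12, 26 and 7. In CPM, the 9 libraries of these 3 constructs lay above the EV range, although the lowest of YAP-TFE3 (0.202 CPM) was next to the highest of EV (0.194 CPM). TAZ-CAMTA1 libraries, with 3, 3 and 7 counts, overlapped EV. AREG passed the filter on low counts only through the groups in which it was high, so its fitted changes are not read as tests, and its values stand here as a description.

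TGFA, encoding transforming growth factor alpha, was lower in YAP5SA, YAP-TFE3 and the libraries labelled TAZ4SA than in EV. EV libraries stood at 11.49, 14.81 and 10.90 CPM. The libraries labelled TAZ4SA held 6.71, 5.37 and 7.06 CPM, YAP5SA 8.87, 6.42 and 6.35 CPM and YAP-TFE3 9.13, 9.67 and 8.09 CPM, all under the lowest EV library. TGFA fell by 0.96 (SE 0.16), 0.79 (SE 0.16) and 0.47 (SE 0.16) on the log2 scale, with edgeR adjusted p = 2.98e-05, 0.000329 and 0.0148. The YAP-TFE3 call was lost without EV replicate 2 (log2 fold change -0.32) and without YAP-TFE3 replicate 3 (-0.40). TAZ-CAMTA1, TFE3, EVsub and CAMTA1 libraries lay between 9.95 and 15.4 CPM and did not differ from their controls beyond the threshold.

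NRG1, encoding the ERBB3 and ERBB4 ligand neuregulin 1, fell in YAP5SA and in the libraries labelled TAZ4SA, and no other comparison with EV called it lower. It stood at 17.0, 18.5 and 19.7 CPM in EV, 10.32, 12.02 and 8.98 CPM in the libraries labelled TAZ4SA (-0.82 on the log2 scale with an SE of 0.12, edgeR adjusted p = 5.72e-06) and 14.5, 15.0 and 11.6 CPM in YAP5SA (-0.43 on the log2 scale with an SE of 0.12, edgeR adjusted p = 0.00552). Both ranges were below that of EV. The highest group mean was that of TAZ-CAMTA1, at 24.20, 23.04 and 23.98 CPM, a range that overlapped those of YAP-TFE3 and EVsub. It did not overlap EV, yet the difference missed the threshold (0.37 on the log2 scale with an SE of 0.12, edgeR adjusted p = 0.0715) and passed it with DESeq2, total-count scaling and a fit on the 2 groups alone. The annotation of NRG1 spans chromosome 8, 31639222 to 32855666, and the count does not tell its isoforms apart.

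BTC, encoding betacellulin, was counted 13 times in all 24 libraries, and 11 of these counts were in YAP-TFE3, which held 1, 5 and 5. EV, EVsub, CAMTA1, YAP5SA and the libraries labelled TAZ4SA held none. Against a floor of 3 counts over the EV group, BTC was at least 2.86-fold higher in YAP-TFE3, which covers counting error only. AREG, EREG and BTC lie on chromosome 4 in GENCODE, with EREG at 74365145 to 74388749, AREG at 74445136 to 74455005 and BTC at 74744759 to 74794523. In YAP-TFE3 these 3 genes lay above the EV range, BTC by as little as 1 count and AREG narrowly (0.202 against 0.194 CPM). In the libraries labelled TAZ4SA, AREG lay above it, EREG below it and BTC was not counted. EPGN, a further EGF family ligand on chromosome 4 (74308470 to 74316789), was too low to test. Its YAP-TFE3 libraries overlapped EV, with means of 0.0301 and 0 CPM. These counts are too few to show whether it rose or not.

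**Figure D1:**
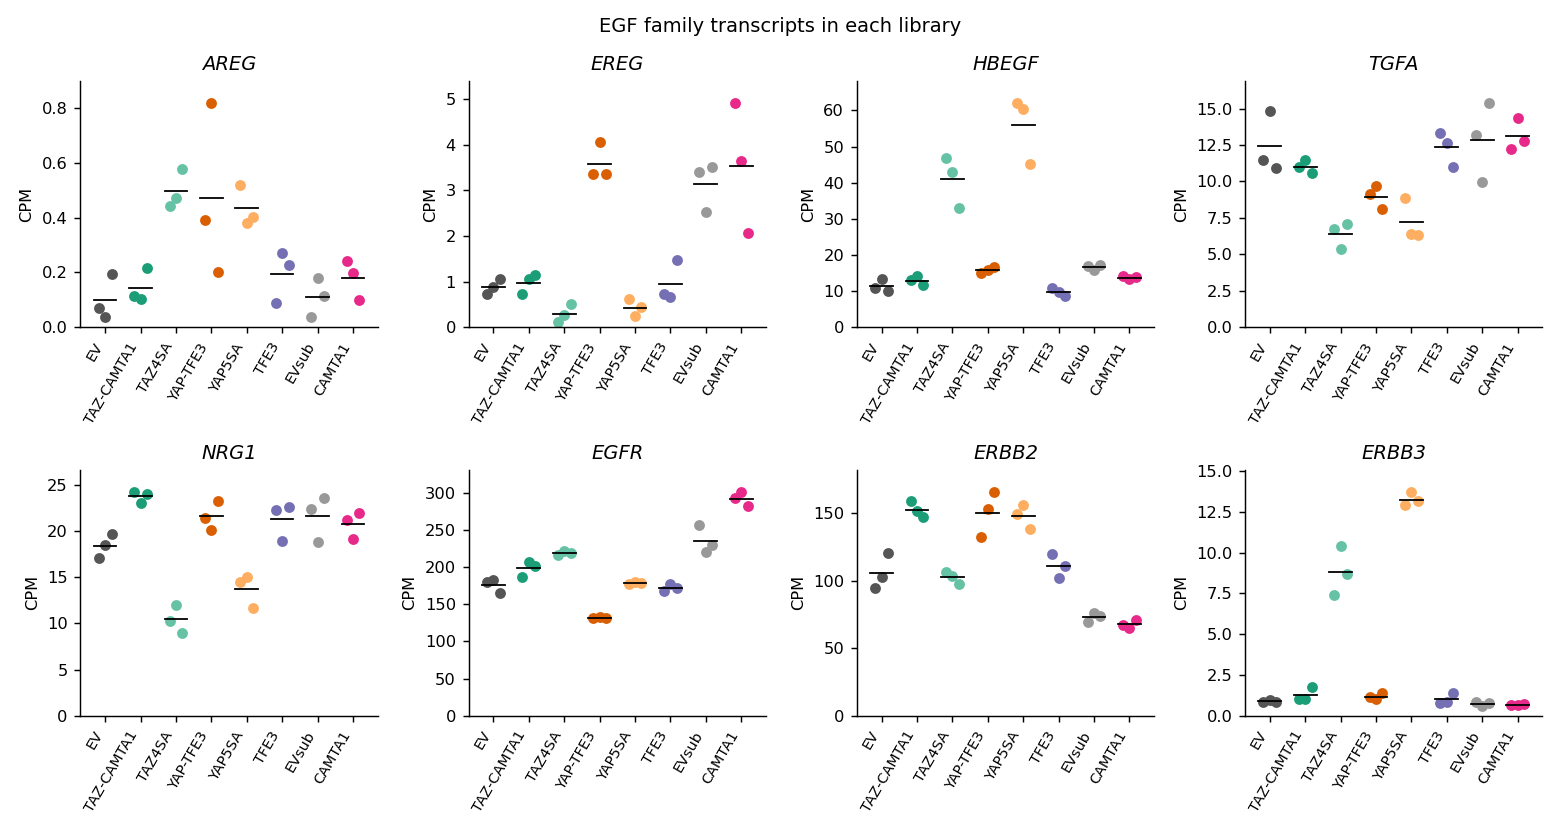
Level of the 8 tested EGF family transcripts in each of the 24 libraries, in CPM on linear axes that start at 0. Each point is a library and each black line is the mean of the 3 libraries of a group; HBEGF and ERBB3 stand high in YAP5SA and in the libraries labelled TAZ4SA, and EREG in YAP-TFE3, EVsub and CAMTA1.

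The 2 abundant receptors responded in opposite directions to YAP-TFE3. EGFR was at 180, 183 and 165 CPM in EV and at 132, 133 and 131 CPM in YAP-TFE3, the lowest of all groups and without overlap with any other (-0.42 on the log2 scale with an SE of 0.07, edgeR adjusted p = 1.72e-05). ERBB2 rose in the same cells, from 94.8, 103 and 121 CPM in EV to 132, 153 and 165 CPM (0.51 on the log2 scale with an SE of 0.09, edgeR adjusted p = 6.74e-05). ERBB2 was raised to a like extent in TAZ-CAMTA1, at 159, 151 and 147 CPM (0.53 on the log2 scale with an SE of 0.09, edgeR adjusted p = 0.000655), where it was the only tested member called, and in YAP5SA, at 149, 156 and 138 CPM (0.48 on the log2 scale with an SE of 0.09, edgeR adjusted p = 0.000154). In the libraries labelled TAZ4SA it overlapped EV, at 107, 103 and 97.6 CPM (-0.05 on the log2 scale with an SE of 0.09, edgeR adjusted p = 0.703). ERBB2 overlaps the neighbours PGAP3 and MIEN1 on the opposite strand (at most 879 and 755 counts against at least 1450 for ERBB2). The library kit marks strand, but whether the counting used it is not stated, so a share of the ERBB2 counts is uncertain.

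EGFR was higher in sub-confluent cells, and higher again with CAMTA1. The sub-confluent empty vector libraries stood at 256, 220 and 230 CPM, above all 3 of confluent EV (0.42 on the log2 scale with an SE of 0.07, edgeR adjusted p = 6.45e-05). CAMTA1 cells, at 293, 301 and 282 CPM, exceeded EVsub and every other library (0.31 on the log2 scale with an SE of 0.07, edgeR adjusted p = 0.0113). That call was not stable: it was lost with no filter on low counts and without CAMTA1 replicate 1 or 2 or EVsub replicate 2 or 3, at log2 fold changes between 0.27 and 0.31. In the libraries labelled TAZ4SA EGFR was at 216, 221 and 219 CPM (0.31 on the log2 scale with an SE of 0.07, edgeR adjusted p = 0.000541), a difference that fell to 0.11 and lost its call under total-count scaling, where all changes in this comparison moved by -0.20. YAP5SA libraries lay at 177, 180 and 178 CPM, inside the EV range (0.02 on the log2 scale with an SE of 0.07, edgeR adjusted p = 0.849).

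ERBB3, a receptor with an impaired kinase that pairs with ERBB2, showed the widest range of the family, 19.0-fold between the highest and the lowest group mean. It was counted at 0.863, 0.952 and 0.872 CPM in EV, 7.39, 10.4 and 8.68 CPM in libraries labelled TAZ4SA and 12.9, 13.7 and 13.1 CPM in YAP5SA. These 2 groups overlapped neither each other nor any other group, and all other libraries stood at 1.75 CPM or less. The increase over EV was 9.79-fold for TAZ4SA (3.29 on the log2 scale with an SE of 0.21, edgeR adjusted p = 7.79e-12) and 14.7-fold for YAP5SA (3.88 on the log2 scale with an SE of 0.21, edgeR adjusted p = 4.15e-13). YAP-TFE3, at 1.14, 1.04 and 1.39 CPM (0.41 on the log2 scale with an SE of 0.24, edgeR adjusted p = 0.175), and TAZ-CAMTA1, at 1.06, 1.06 and 1.75 CPM (0.54 on the log2 scale with an SE of 0.24, edgeR adjusted p = 0.236), lay above the EV range without passing the threshold. ERBB4 was counted once, in a YAP5SA library, so 3 counts per library bound it elsewhere.

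The summed epithelial markers were high in the groups in which ERBB3 and HBEGF were high. The 5 markers summed to 198 to 214 CPM in EV, 1886 to 2154 CPM in the libraries labelled TAZ4SA, 3011 to 4022 CPM in YAP5SA and 154 to 614 CPM in all other groups. Nearly all of this was KRT8 and KRT18, keratins that form a filament pair, at 47.2 ± 5.03 and 158 ± 2.94 CPM in EV and 2156 ± 284 and 1413 ± 245 CPM in YAP5SA (SD, n = 3). The other 3 markers were low in every library and did not move as one. CDH1 was at 0.0242 ± 0.021 CPM in EV, 0.855 ± 0.199 CPM with the TAZ4SA label and 1.53 ± 0.273 CPM in YAP5SA. EPCAM was at 1.20 ± 0.622, 0.583 ± 0.0905 and 0.598 ± 0.0974 CPM in the same order, and KRT19 never exceeded 0.451 CPM. The part of these markers in the changes of ERBB3 and HBEGF was not tested.

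Against their empty vector controls, the tested members were called in comparisons with very different backgrounds. For TAZ-CAMTA1 1 of 8 members was higher (3.55% of all 19997 genes tested) and 0 were lower (1.44%), with 4 higher and 0 lower at an unadjusted p-value under 0.05 in edgeR and 2 and 0 by DESeq2. For TAZ4SA 4 were higher (25.1% of all genes) and 3 lower (24.2%). YAP-TFE3 had 4 higher (25.6%) and 2 lower (22.6%), and YAP5SA 4 higher (22.7%) and 2 lower (21.6%). For full-length TFE3 edgeR called 0 members higher (0.035%) and 0 lower (0%), and none reached an unadjusted p-value under 0.05 or a DESeq2 call. For CAMTA1 against EVsub 1 was higher (1.26%) and 0 lower (0.57%), with 1 lower, HBEGF, at an unadjusted p-value under 0.05 and 0 by DESeq2. Sub-confluent against confluent empty vector gave 3 higher (19.8%) and 1 lower (17.1%), the last being ERBB2 at 69.3, 76.4 and 74.1 CPM (-0.53 on the log2 scale with an SE of 0.09, edgeR adjusted p = 0.000122). HBEGF was among the 3 higher, at 17.0, 15.8 and 17.3 CPM in EVsub (0.55 on the log2 scale with an SE of 0.14, edgeR adjusted p = 0.00294). AREG, which passed the filter only where it was high, is among the higher members for TAZ4SA, YAP-TFE3 and YAP5SA. In a family of 8 tested genes each such count is a description beside its background. Comparisons with EV share the same 3 control libraries.

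**Figure D2:**
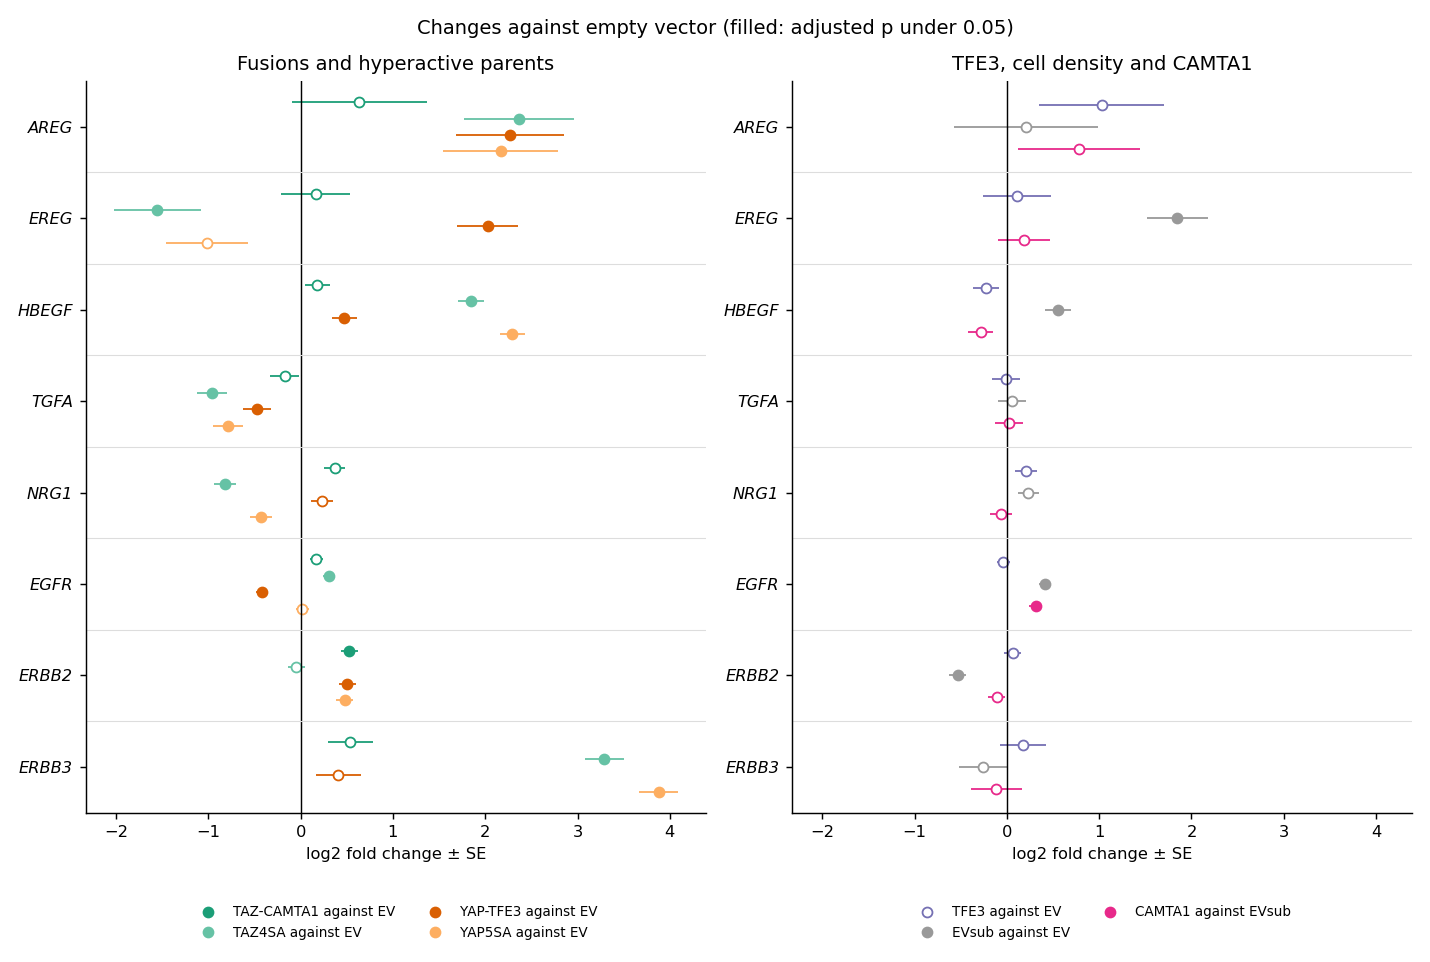
Log2 fold change of the 8 tested members against empty vector, with bars of 1 SE from the edgeR fit; filled points passed an adjusted p-value of 0.05. On the left ERBB3 lies at 3.29 and 3.88 for TAZ4SA and YAP5SA and under 0.6 for both fusions; on the right EREG rises by 1.85 with sub-confluence and every TFE3 point is open. AREG is drawn as fitted but not read as a test.

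The study set the fusions against TAZ4SA and YAP5SA, so these groups were also compared directly. TAZ-CAMTA1 against TAZ4SA had 4 of 8 members higher (26.9% of all genes) and 3 lower (26.8%), and only EGFR was not called in edgeR. DESeq2 called EGFR lower in the fusion. EREG was 3.28-fold higher in the fusion (1.71 on the log2 scale with an SE of 0.45, edgeR adjusted p = 0.00274; 2.36 without TAZ4SA replicate 3), NRG1 2.28-fold (1.19 on the log2 scale with an SE of 0.12, edgeR adjusted p = 1.81e-08), TGFA 1.72-fold (0.79 on the log2 scale with an SE of 0.16, edgeR adjusted p = 0.000239) and ERBB2 1.49-fold (0.57 on the log2 scale with an SE of 0.09, edgeR adjusted p = 1.35e-05). HBEGF (-1.67 on the log2 scale with an SE of 0.14, edgeR adjusted p = 4.22e-10) and ERBB3 (-2.75, SE 0.20, edgeR adjusted p = 5.14e-11) were lower in the fusion. None of these differences had overlap between the 3 libraries on either side. The third member counted as lower was AREG, at 3, 3 and 7 counts in the fusion against 11, 11 and 15, which is not read as a test.

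YAP-TFE3 against YAP5SA had 2 members higher (28.1%) and 3 lower (24.3%). EREG was 8.22-fold higher in the fusion (3.04 on the log2 scale with an SE of 0.37, edgeR adjusted p = 3.05e-07), and NRG1 1.58-fold (0.66 on the log2 scale with an SE of 0.12, edgeR adjusted p = 5.43e-05). HBEGF (-1.82 on the log2 scale with an SE of 0.13, edgeR adjusted p = 6.30e-11), EGFR (-0.44, SE 0.07, edgeR adjusted p = 8.45e-06) and ERBB3 (-3.47, SE 0.20, edgeR adjusted p = 6.73e-13) were lower. ERBB2, raised by both constructs over EV, was not called between them, at a log2 fold change of 0.03 (SE 0.09), and the AREG libraries overlapped.

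Between the fusions, TAZ-CAMTA1 had 1 member higher (19.9%) and 2 lower (22.8%) than YAP-TFE3. EGFR was 1.503-fold higher (0.59 on the log2 scale with an SE of 0.07, edgeR adjusted p = 1.79e-07) and EREG 3.64-fold lower (-1.86 on the log2 scale with an SE of 0.31, edgeR adjusted p = 3.47e-05). The other member counted as lower was AREG, whose libraries overlapped (3, 3 and 7 counts against 12, 26 and 7) and which is not read as a test. Without YAP-TFE3 replicate 2 its fitted change went from -1.63 to -0.97 and the call was lost, as it also was without TAZ-CAMTA1 replicate 2 (-1.44) and in a fit on the 2 groups alone (-1.62). HBEGF, TGFA, NRG1, ERBB2 and ERBB3 did not pass the threshold, at absolute log2 fold changes of 0.02 to 0.30.

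**Figure D3:**
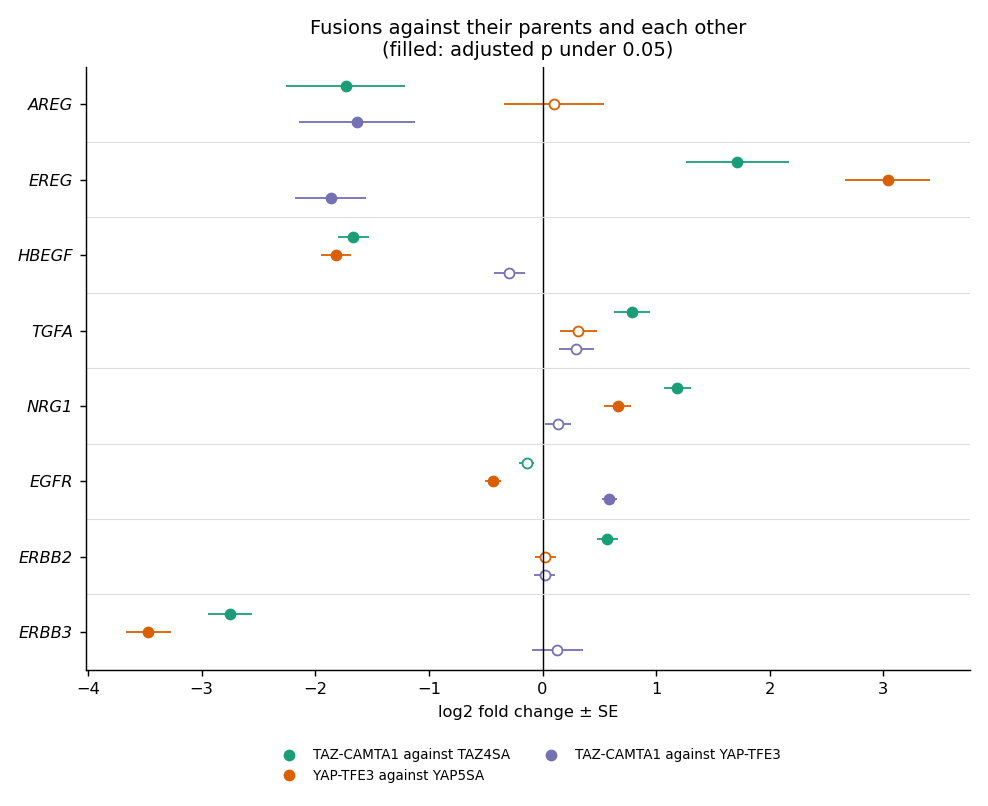
Log2 fold change of the 8 tested members of TAZ-CAMTA1 against TAZ4SA, of YAP-TFE3 against YAP5SA and of TAZ-CAMTA1 against YAP-TFE3, with bars of 1 SE; filled points passed an adjusted p-value of 0.05. EREG lies at 1.71 and 3.04 and ERBB3 at -2.75 and -3.47 in the first and the second comparison. AREG is drawn as fitted but not read as a test.

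Levels of different genes were compared per kilobase of the canonical transcript. On this scale ERBB2 (23.3 ± 2.91) and EGFR (17.8 ± 0.969) were the abundant members in EV, followed by HBEGF (4.81 ± 0.715), TGFA (3.01 ± 0.512) and NRG1 (1.54 ± 0.112), all in CPM per kilobase (SD, n = 3). The order of ERBB2 and EGFR depends on the length used. Per kilobase of all annotated exons, EGFR stood at 11.1 in EV and 13.7 in the libraries labelled TAZ4SA, and ERBB2 at 10.3 and 9.94. The summed ligand level was 9.64 ± 1.15 CPM per kilobase in EV, 20.2 ± 2.93 in libraries labelled TAZ4SA and 27.0 ± 4.30 in YAP5SA. HBEGF took 49.9% ± 2.16 of it in EV, and 85.5% ± 2.90 and 87.6% ± 1.22 in those 2 groups. The other 5 groups kept HBEGF between 42.1% and 59.4% in every library. EREG took 6.53% ± 0.544 of the ligand level in YAP-TFE3 and 2.02% ± 0.499 in EV.

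The balance of the main receptors differed by group more than their sum. The summed receptor level spanned only 39.0 to 54.8 CPM per kilobase over all libraries. The ratio of EGFR to ERBB2 per kilobase was 0.776 ± 0.129 in EV, 0.407 ± 0.0475 in YAP-TFE3, 1.48 ± 0.195 in EVsub and 1.98 ± 0.148 in CAMTA1 (SD, n = 3). Its size depends on the transcript lengths used (1.69 ± 0.280 in EV from counts alone), but the order of the groups does not. The 3 libraries of YAP-TFE3 (0.364 to 0.458) were below, and the 6 of EVsub and CAMTA1 (1.32 to 2.12) above, all other libraries. No test of these ratios was run. An exact permutation test with 3 libraries on each side cannot give a two-sided p under 0.1. ERBB3 took 4.47% ± 0.147 of the receptor level in YAP5SA and 0.388% ± 0.0269 in EV.

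**Figure D4:**
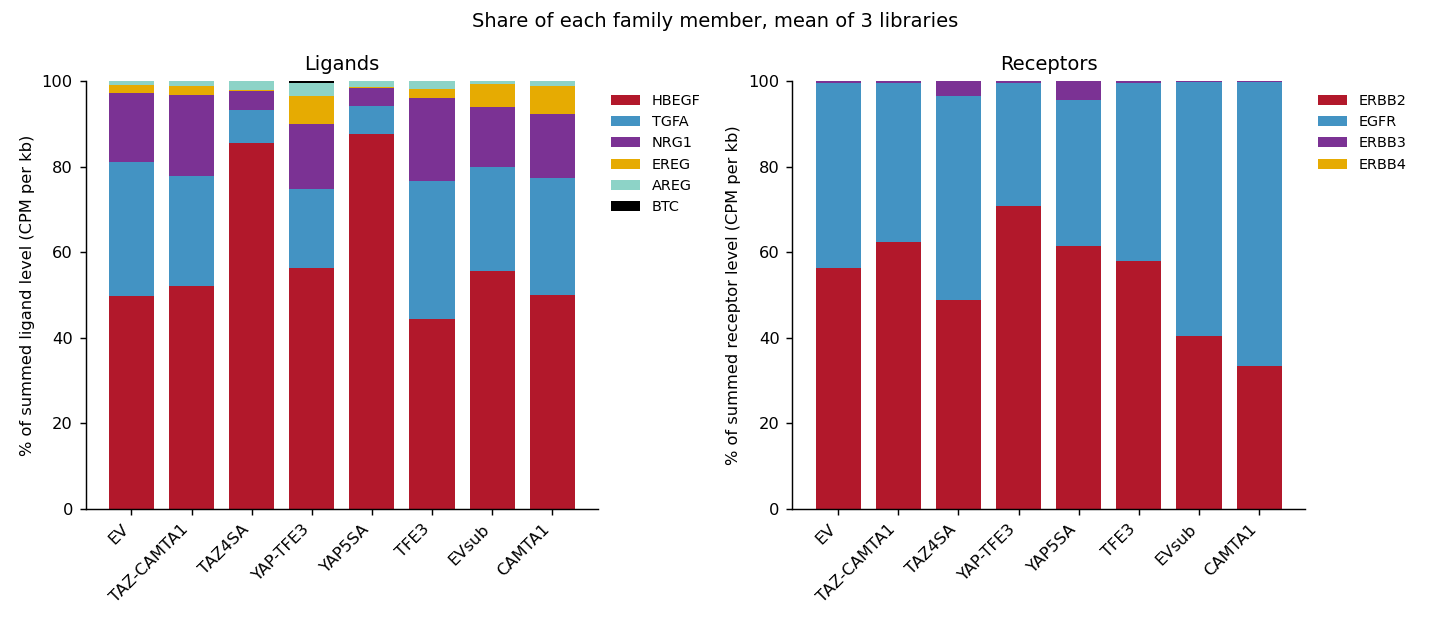
Share of each member in the summed ligand level (left) and in the summed receptor level (right), in percent of CPM per kilobase of the canonical transcript; each bar is the mean of 3 libraries. On this scale HBEGF takes over 80% of the ligand level only in YAP5SA and in the libraries labelled TAZ4SA, and EGFR takes over 50% of the receptor level only in EVsub and CAMTA1. The EGFR share depends on the transcript length used.

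Over the 24 libraries, which share the 8 groups and are not independent points, the log2 CPM of HBEGF and ERBB3 rose together (Pearson r = 0.91), those of TGFA and ERBB3 moved oppositely (r = -0.85), and so did those of EGFR and ERBB2 (r = -0.78). Of 12155 genes with a symbol and a mean of at least 100 counts, the 3 most like HBEGF were ITPK1, an inositol phosphate kinase (r = 0.97), BCL2L1, an inhibitor of apoptosis (r = 0.97), and KRT81, a hair keratin (r = 0.96). ITPK1 stood at 15.9 ± 1.07 CPM in EV and 54.1 ± 4.87 CPM in YAP5SA, and KRT81, which has near-identical paralogs and is therefore uncertain, at 1.72 ± 0.195 and 466 ± 80.4 CPM (SD, n = 3). The 3 most like ERBB2 were SMO, a receptor of the hedgehog pathway (r = 0.97), SMARCD3, a chromatin remodelling subunit (r = 0.94), and BTN2A2 (r = 0.93). SMO stood at 74.4 ± 9.71 CPM in EV and 91.3 ± 7.27 CPM in YAP5SA. Its means were 133 CPM in YAP-TFE3, 109 CPM in TAZ-CAMTA1 and 61.5 CPM in the libraries labelled TAZ4SA.

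Other genes of the pathway were examined by role. Of 5 further EGF family ligands, 3 were tested. EGF itself was, like EREG, raised in YAP-TFE3. It stood at 1.74 ± 0.232 CPM in EV, 8.14 ± 1.095 CPM in YAP-TFE3 (2.23 on the log2 scale with an SE of 0.18, edgeR adjusted p = 5.52e-10) and 0.744 ± 0.0703 CPM in YAP5SA (-1.22 on the log2 scale with an SE of 0.24, edgeR adjusted p = 0.000206). It also rose in TAZ-CAMTA1 (0.77 on the log2 scale with an SE of 0.19, edgeR adjusted p = 0.0181) and fell in the libraries labelled TAZ4SA (-1.01 on the log2 scale with an SE of 0.23, edgeR adjusted p = 0.000803). NRG2, a neuregulin, fell from 8.33 ± 1.77 CPM to 4.13 ± 0.773 CPM in YAP5SA (-1.004 on the log2 scale with an SE of 0.19, edgeR adjusted p = 0.000117).

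Of 10 genes that shed or traffic the ligands, 5 rose and 1 fell in YAP-TFE3 (25.6% and 22.6% of all genes), with a median log2 fold change of 0.24 against -0.01 over all genes. In YAP5SA 3 rose and 2 fell, close to the shares of all genes (22.7% and 21.6%), with a median of -0.16 against -0.04. For TAZ-CAMTA1 edgeR and DESeq2 each called 2 higher and 0 lower, and edgeR gave 3 and 0 at an unadjusted p-value under 0.05. There 3.55% and 1.44% of all genes were called by edgeR, and the median was 0.05 against 0.005. ADAM9, a membrane protease, rose from 153 ± 11.7 to 338 ± 60.4 CPM in YAP-TFE3 (1.14 on the log2 scale with an SE of 0.13, edgeR adjusted p = 1.47e-07). It was also above the EV range in CAMTA1 (277 ± 30.7 CPM), EVsub (247 ± 32.3 CPM), TAZ-CAMTA1 (247 ± 25.2 CPM) and YAP5SA (212 ± 25.5 CPM), and narrowly in the libraries labelled TAZ4SA (175 ± 14.0 CPM). RHBDF1, which guides the sheddase ADAM17, rose in YAP-TFE3 from 37.0 ± 2.73 to 76.7 ± 11.3 CPM (1.05 on the log2 scale with an SE of 0.12, edgeR adjusted p = 6.38e-08). TAZ-CAMTA1 (58.3 ± 4.13 CPM), YAP5SA (52.1 ± 6.07 CPM) and the libraries labelled TAZ4SA (53.6 ± 5.78 CPM) were above the EV range too. EVsub (28.7 ± 2.01 CPM) and CAMTA1 (31.0 ± 1.04 CPM) were below it. ADAM10, another sheddase, fell from 196 ± 15.4 to 96.4 ± 11.5 CPM in the libraries labelled TAZ4SA (-1.02 on the log2 scale with an SE of 0.12, edgeR adjusted p = 1.29e-07).

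Of 14 genes that restrain the receptors, 13 were tested. In YAP-TFE3 5 rose and 2 fell (25.6% and 22.6% of all genes), with a median log2 fold change of 0.05 against -0.01 over all genes. In YAP5SA 5 rose and 3 fell (22.7% and 21.6% of all genes), with a median of 0.12 against -0.04. UBASH3B, a phosphatase that binds the ubiquitin ligase CBL, rose from 13.7 ± 0.624 to 47.9 ± 7.61 CPM in YAP5SA (1.81 on the log2 scale with an SE of 0.17, edgeR adjusted p = 6.84e-09). It was also above the EV range in CAMTA1 (43.1 ± 9.92 CPM), EVsub (29.3 ± 7.68 CPM) and the libraries labelled TAZ4SA (30.8 ± 2.87 CPM), and narrowly in TAZ-CAMTA1 (15.8 ± 2.08 CPM). RNF41, a ubiquitin ligase that targets ERBB3, rose from 61.6 ± 8.67 to 160 ± 43.0 CPM in YAP-TFE3 (1.38 on the log2 scale with an SE of 0.13, edgeR adjusted p = 1.02e-08) and was also called higher in TAZ-CAMTA1, YAP5SA and the libraries labelled TAZ4SA. SOCS4, a suppressor of cytokine signalling, rose with sub-confluence, at 20.1 ± 3.34 CPM in EV and 39.4 ± 8.57 CPM in EVsub (0.97 on the log2 scale with an SE of 0.22, edgeR adjusted p = 0.00164).

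The relay from the receptors to RAS, ERK, PI3-kinase and STAT held 25 tested genes of 26. PIK3R1, the regulatory PI3-kinase subunit, fell from 159 ± 12.1 CPM in EV to 26.8 ± 4.28 CPM in the libraries labelled TAZ4SA (-2.57 on the log2 scale with an SE of 0.14, edgeR adjusted p = 3.75e-13) and 36.3 ± 5.38 CPM in YAP5SA (-2.13 on the log2 scale with an SE of 0.14, edgeR adjusted p = 5.93e-12). GAB1, a docking protein, fell in the same groups, from 27.4 ± 0.995 to 9.29 ± 1.51 and 9.81 ± 1.09 CPM. SOS1, an exchange factor for RAS, rose in YAP-TFE3 to 106 ± 34.1 CPM from 56.5 ± 5.75 CPM (0.90 on the log2 scale with an SE of 0.18, edgeR adjusted p = 0.000216). Over the list there were 8 higher and 6 lower for TAZ4SA (25.1% and 24.2% of all genes), 10 and 5 for YAP-TFE3 (25.6% and 22.6%) and 7 and 4 for YAP5SA (22.7% and 21.6%). The median log2 fold changes were 0.01, 0.14 and 0.08, against -0.03, -0.01 and -0.04 over all genes.

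Of 10 transcripts often read as markers of ERK activity, 2 rose and 7 fell in YAP5SA (22.7% and 21.6% of all genes), with a median log2 fold change of -0.60 against -0.04 over all genes. For TAZ4SA 2 rose and 6 fell (25.1% and 24.2% of all genes), with a median of -0.45 against -0.03. In YAP-TFE3 5 rose, 5 were not called and edgeR called 0 lower (25.6% and 22.6% of all genes rose and fell), nor did any fall at an unadjusted p-value under 0.05 or by DESeq2, with a median of 0.28 against -0.01. DUSP6, the phosphatase that switches off ERK, was at 95.9 ± 2.02 CPM in EV and 29.9 ± 3.11 CPM in YAP5SA (-1.68 on the log2 scale with an SE of 0.13, edgeR adjusted p = 1.22e-10). SPRY4, a feedback inhibitor of RAS signalling, was at 59.6 ± 2.59 and 20.6 ± 0.948 CPM (-1.53 on the log2 scale with an SE of 0.12, edgeR adjusted p = 2.08e-10). EPHA2, an ephrin receptor, rose against that direction, from 72.003 ± 4.43 to 220 ± 13.7 CPM (1.61 on the log2 scale with an SE of 0.12, edgeR adjusted p = 1.54e-10). These are transcript levels, and no ERK activity was measured here.

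A second list of 10 ERK-induced genes had 6 higher and 1 lower in YAP-TFE3, with a median log2 fold change of 1.04, where 25.6% and 22.6% of all genes were called. There were 3 and 3 for TAZ4SA (median 0.19), near the 25.1% and 24.2% of all genes, and 2 and 4 in YAP5SA (median -0.70), where these shares were 22.7% and 21.6%. FOSL1, an AP-1 subunit, rose from 11.2 ± 1.53 CPM in EV to 126 ± 35.3 CPM in the libraries labelled TAZ4SA (3.49 on the log2 scale with an SE of 0.33, edgeR adjusted p = 5.05e-09). It was also above EV in CAMTA1 (77.9 ± 30.0 CPM), YAP5SA (76.1 ± 19.3 CPM), EVsub (55.0 ± 13.5 CPM) and YAP-TFE3 (26.9 ± 11.6 CPM), but not in TAZ-CAMTA1 (8.39 ± 1.28 CPM) or TFE3 (10.3 ± 2.32 CPM). EGR1, an immediate-early factor, spread from 10.4 to 81.8 CPM over the 3 YAP-TFE3 libraries, against 5.79 to 9.79 CPM in EV (2.23 on the log2 scale with an SE of 0.53, edgeR adjusted p = 0.00119). Its YAP-TFE3 mean of 34.5 ± 40.9 CPM rested largely on a single library. FOS, also among the 6 higher, varied widely too, at 6.66 ± 5.65 CPM in YAP-TFE3 and 2.29 ± 0.706 CPM in EV. IER3, another early response gene, rose from 2.19 ± 0.216 to 7.23 ± 1.28 CPM in YAP-TFE3 (1.73 on the log2 scale with an SE of 0.21, edgeR adjusted p = 2.19e-07). Directly against YAP5SA, YAP-TFE3 had 7 of the 10 ERK activity markers higher and 1 lower, and 8 of the 10 other ERK-induced genes higher and 2 lower, with medians of 0.84 and 1.43 against 0.05 over all genes, of which 28.1% were called higher and 24.3% lower.

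**Figure D5:**
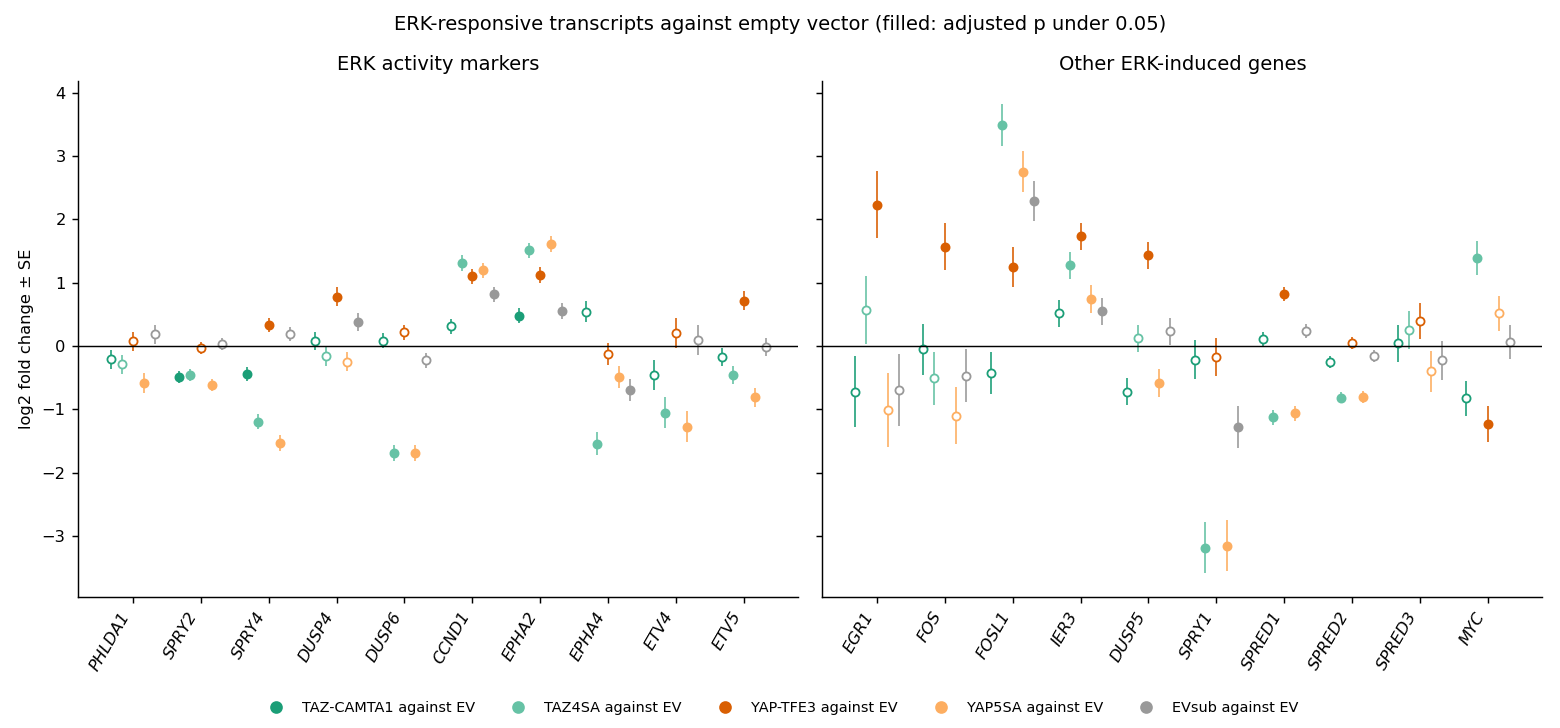
Log2 fold change against confluent empty vector of the ERK activity markers (left) and of other ERK-induced genes (right), with bars of 1 SE; filled points passed an adjusted p-value of 0.05. DUSP6 and SPRY4 lie at -1.68 and -1.53 in YAP5SA, while EPHA2 is filled and above 0 in YAP5SA, YAP-TFE3 and the libraries labelled TAZ4SA.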

How the data were processed

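Poly(A) RNA of SW872 cells was sequenced from 24 strand-marked libraries (TruSeq stranded mRNA). The authors deposited whole-number counts per Ensembl gene, not normalized, 1 table per library, after processing reads against hg38 in bcbio-nextgen; the submitters' processing notes also name bcl2fastq. Which tool counted the reads, whether it used strand and what it did with multiply aligned reads is not given in the sources used here. The authors tested with DESeq2 on salmon estimates, a different quantification.

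Groups came from the GEO titles. The quasi-likelihood test of edgeR 4.0.16 (R 4.3.3) was run on 19997 genes averaging 5 counts or more per library, with all 24 libraries in 1 fit, TMM scaling, 1 mean per group and Benjamini-Hochberg adjustment over all tested genes at 0.05. SEs were computed from the log2 fold change and its F statistic. Totals ran from 19700277 to 35287476 counts; intervals and floors cover counting error only, since no molecular identifiers were described. Coordinates and transcript lengths came from GENCODE 44, which held 56104 of the 60279 identifiers, and start windows from RefSeq.

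The 10 members were named, with up to 3 genes per pathway list (largest absolute log2 fold change against an empty vector group among called genes averaging 100 counts or more, with libraries that did not overlap). The 3 genes most correlated with HBEGF and with ERBB2 were named too. Among members averaging 100 counts or more, these were the ligand and the receptor with the widest range of group means of log2 CPM. EREG and ERBB3, whose group means ranged 12.2-fold and 19.0-fold, averaged fewer counts and were not eligible. BTC and ERBB4 are named as members without a test. Members, lists and tests were chosen with earlier results of these data known. On simulated counts for YAP5SA against EV (200 changed genes drawn, 19855 genes tested), 92.0% of genes raised by a log2 of 2, 83.7% of those lowered by 2, 74.0% of those raised by 1 and 63.3% of those lowered by 1 were called, and 4.32% of calls were false. Alternatives were DESeq2 1.42.0, its size factors, total-count scaling, other filters on low counts, the replicate number as a block, fits on the 2 groups compared, thinned counts, and fits without each library. P-values measure the spread between these libraries.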

Additional observations from a re-analysis of the deposited data

How the results depend on the processing

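Of 1098 alternative values for single members, 1041 kept their direction and their side of the threshold, 12 lost the call, 14 gained it and 31 changed sign, none of those called in the chosen fit. Total-count scaling moved all log2 fold changes by -0.20 for TAZ4SA against EV, -0.19 for YAP5SA against EV, 0.20 for TAZ-CAMTA1 against TAZ4SA and 0.10 for YAP-TFE3 against YAP5SA. The members called higher in TAZ-CAMTA1 than in EV became 2 under total-count scaling, in a fit on the 2 groups alone and by DESeq2, through NRG1. Those higher in CAMTA1 than in EVsub became 0 with no filter on low counts and 0 to 1 when single libraries were left out. Those lower in YAP-TFE3 than in EV became 1 to 2 when single libraries were left out. Between TAZ-CAMTA1 and YAP-TFE3, 2 were higher under total-count scaling, and 1 was lower with a mean of at least 20 counts (which leaves AREG untested), in a fit on the 2 groups alone and after thinning, and 1 to 2 when single libraries were left out.

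Signs changed under total-count scaling for EGFR in YAP5SA (-0.17), TGFA in CAMTA1 (-0.00091), TGFA in EVsub (-0.0096) and EGFR in TAZ-CAMTA1 against TAZ4SA (0.059), with no filter for TGFA in TFE3 (0.015), and after thinning for NRG1 in CAMTA1 (0.048) and ERBB3 between the fusions (-0.24); the cause was not tested.

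Same-numbered libraries correlated in their deviations from the group means at -0.236 to 0.216, with no comparison in which all 3 pairs exceeded 0.1, so the numbers were not taken to pair libraries. With the replicate block, all 80 member values kept direction and call, and the counts of calls stayed at 4 higher and 2 lower for YAP5SA and 4 and 3 for TAZ4SA. Low counts limit AREG, EREG and BTC most.

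Leaving out single libraries changed signs only for differences that were not called, which then ranged on the log2 scale as follows. Against EV, ERBB2 in TAZ4SA ran from -0.12 to 0.056, EGFR in YAP5SA from -0.026 to 0.046, and, in TFE3, EREG from -0.33 to 0.31, TGFA from -0.091 to 0.14, ERBB2 from -0.011 to 0.17 and ERBB3 from -0.11 to 0.31. In CAMTA1 against EVsub, EREG ran from -0.13 to 0.43, TGFA from -0.12 to 0.18, NRG1 from -0.15 to 0.0054 and ERBB3 from -0.23 to 0.0063. In EVsub against EV, AREG ran from -0.19 to 0.93 and TGFA from -0.098 to 0.20. In YAP-TFE3 against YAP5SA, AREG ran from -0.56 to 0.48 and ERBB2 from -0.047 to 0.11, and between the fusions ERBB2 ran from -0.066 to 0.092 and ERBB3 from -0.18 to 0.26.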
